A study of Mus musculus with 16 samples.

Results

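The genes described here are 10 of eicosanoid biology: the cyclooxygenases Ptgs1 and Ptgs2, the synthases Ptges and Tbxas1, the phospholipase Pla2g4a, the 5-lipoxygenase pair Alox5 and Alox5ap, the dehydrogenase Hpgd, and the PGE2 receptors Ptger2 and Ptger4. A gene was represented by the probe set that names it alone, and 9 of the 10 were measured this way, among 18820 genes in all. Each of the 9 had 1 such probe set. Ptgs1 had none in the array's gene table and was not analysed here.

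The cells were RAW264.7, a mouse macrophage line, grown in serum and treated for 24 h in 4 groups of 4 arrays. Control cells received the solvent (ethanol, 0.1%), and the second group received docosahexaenoyl serotonin at 1 µM (DHA-5-HT, written DHA5HT here), an amide of the fatty acid DHA with serotonin. The third group received lipopolysaccharide (LPS, a bacterial cell wall component) at 1 µg/ml, and the fourth received LPS and DHA5HT at the same doses (LPS+DHA5HT). All groups are the same line, with no genetic change named, and no label states that a group's arrays are separate cultures. The p-values therefore measure only the spread among these arrays, which may be technical. The title of LPS+DHA5HT array 1 names both agents, whereas its treatment label names DHA5HT alone.

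Eicosanoids are signalling lipids made from arachidonic acid that phospholipases such as the product of Pla2g4a (cytosolic phospholipase A2) release from membranes. Cyclooxygenases turn it into prostaglandin H2, which synthases convert to PGE2 (Ptges), thromboxane (Tbxas1) and other prostanoids, while 5-lipoxygenase (Alox5) with its membrane partner FLAP (Alox5ap) starts the route to leukotrienes. In macrophages cyclooxygenase-2 (Ptgs2) is the inducible form, PGE2 acts back on the cells through the receptors EP2 (Ptger2) and EP4 (Ptger4), both coupled to cyclic AMP, and Hpgd inactivates prostaglandins.

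Promoters of 4 genes are shown because their genes moved most with LPS, 3 upward (Ptgs2, Ptges, Ptger2) and 1 downward (Alox5). They come from RefSeq on build GRCm38.p6, run 5′ to 3′ on the gene's strand, and cover 250 bases before the annotated start and 50 after it. Capitals mark matches to any of the searched motifs.
Ptgs2: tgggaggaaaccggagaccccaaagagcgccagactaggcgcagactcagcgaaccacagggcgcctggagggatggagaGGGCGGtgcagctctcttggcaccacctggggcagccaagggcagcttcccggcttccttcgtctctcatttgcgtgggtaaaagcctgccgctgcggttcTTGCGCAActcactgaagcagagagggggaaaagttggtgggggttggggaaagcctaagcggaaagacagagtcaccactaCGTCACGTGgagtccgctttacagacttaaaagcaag
Ptges: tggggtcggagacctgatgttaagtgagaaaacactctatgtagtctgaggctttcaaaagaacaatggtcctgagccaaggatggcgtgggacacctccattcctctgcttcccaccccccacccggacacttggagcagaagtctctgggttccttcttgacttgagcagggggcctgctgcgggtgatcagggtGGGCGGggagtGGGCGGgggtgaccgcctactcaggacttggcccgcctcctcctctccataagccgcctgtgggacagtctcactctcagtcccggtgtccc
Ptger2: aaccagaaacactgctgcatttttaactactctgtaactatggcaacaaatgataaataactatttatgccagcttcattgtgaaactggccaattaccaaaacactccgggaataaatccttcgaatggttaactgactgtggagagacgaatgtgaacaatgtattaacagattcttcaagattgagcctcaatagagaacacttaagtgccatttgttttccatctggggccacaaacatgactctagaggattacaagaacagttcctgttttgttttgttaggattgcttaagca
Alox5: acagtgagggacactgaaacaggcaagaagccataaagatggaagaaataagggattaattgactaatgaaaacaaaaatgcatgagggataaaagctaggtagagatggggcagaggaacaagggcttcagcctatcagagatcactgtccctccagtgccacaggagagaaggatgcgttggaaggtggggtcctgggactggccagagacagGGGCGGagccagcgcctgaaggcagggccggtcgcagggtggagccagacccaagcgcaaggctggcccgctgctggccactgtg
The windows are chr1:150099781-150100080 on the plus strand for Ptgs2, chr2:30903248-30903547 on the minus strand for Ptges, chr14:44987861-44988160 on the plus strand for Ptger2 and chr6:116461129-116461428 on the minus strand for Alox5.

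Positions are counted from the annotated start as base 1, with -1 as the base before it. Both strands were searched for the TATA box (TATAAA), the cyclic AMP response element (CRE, half-site TGACG and full TGACGTCA), the E-box (CACGTG), C/EBP (TTNCGCAA), AP-1 (TGANTCA), the GC box (GGGCGG), and by name the interferon-stimulated response element and the NF-kB site. In the Ptgs2 window a C/EBP match lies from -69 to -62, a motif found in 0.807% of 27025 mouse promoters of this length. A CRE half-site on the opposite strand (14 to 18; 21.0% of promoters) overlaps an E-box (17 to 22; 7.24%), and a GC box lies from -170 to -165 (35.9%). The Ptges window holds 2 GC boxes, beginning at -53 and -42, and the Alox5 window has 1, beginning at -35. The Ptger2 window matched none of the searched motifs and has a GC content of 37.7%, lower than in most promoters (7.06% of them are poorer in GC). Since Ptger2 matched none, no searched motif could be common to the 3 genes that rose. The GC box was found in Ptgs2 and Ptges, which rose, and in Alox5, which fell. These matches describe letters in the window and not bound sites.

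All values below are log2 intensities from arrays normalized together, errors are SD with n = 4 arrays unless SE is named, and a gene is called changed when its limma p-value, adjusted by the Benjamini-Hochberg method over all 18820 genes, is below 0.05. The deposited files give no detection call, so 13 measured markers of lymphocytes and epithelium, cells absent from this line, set a background level of 3.70, their median. Of 12 macrophage markers 11 lay more than 1 above it, and Cd63, at 2.71 to 2.83, did not. Neutrophil markers were near background (0 of 5 more than 1 above it), as were those of mast cells and platelets (1 of 9, Pf4, between 9.65 and 10.22 in group means). LPS moved some macrophage markers as well: Adgre1, which encodes a surface receptor of macrophages, went from 6.93 to 10.87, and the summed level of the 12 was 120.6 to 122.3 over control arrays and 126.2 to 126.7 over LPS arrays. Without LPS, the macrophage marker Fcgr1 was lower with DHA5HT by 0.46 (limma adjusted p = 0.0264), while the summed level over DHA5HT arrays was 120.9 to 121.8. The part of these markers in the results was not tested. LPS+DHA5HT array 4 stood apart from the others on the second principal component (4.72% of variance, at -22.4, against -9.36 to 10.0 for the other 15 arrays). LPS+DHA5HT array 1, of the conflicting labels, sat at 83.8% of the way from control to LPS over 136 LPS-responsive genes, beside 78.5% to 90.8% for the rest of its group and -4.41% to -1.41% for DHA5HT arrays. It was kept as titled.

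LPS against control asks how the pathway responded to the bacterial stimulus. On the PGE2 side 3 genes rose (12.6% of all genes rose), and both genes of the 5-lipoxygenase pair fell (15.8% of all genes fell), so 5 of 9 were called, against 28.4% of all genes. Bright genes were called more often: of the 9410 brighter than the median gene, tested alone, 2242 rose and 3020 fell. Among these were 6 of the listed genes, and all 6 were called in that setting. The arrays of the groups did not overlap for 6 of the 9, against 29.8% of all genes. The median change of the 9 was -0.15, against 0.004 over all genes, since rises and falls mixed.

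Ptgs2, the inducible cyclooxygenase, was already well above background in untreated cells. Its control arrays read 9.98, 10.22, 9.87 and 10.46, and its LPS arrays read 12.98, 13.02, 13.06 and 13.14. Every LPS array lay more than 2 log2 units above every control array, and the LPS arrays were closely spaced (10.13 ± 0.26 against 13.05 ± 0.07). The change was 2.92 (SE 0.16), 7.54-fold, with an adjusted p of 1.87e-10. In RNA from whole cultures, more responding cells and more RNA per cell cannot be told apart.

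Ptges encodes microsomal prostaglandin E synthase-1, the enzyme that commonly works downstream of cyclooxygenase-2. Control arrays read 5.43, 5.84, 5.62 and 5.83, whereas LPS arrays read 6.83, 6.85, 6.87 and 7.09. The groups were separate, and the rise was 1.23 (SE 0.10), 2.34-fold (limma adjusted p = 3.16e-08). Ptger2, the receptor EP2, rose from a level near background. It read 4.09, 3.93, 4.17 and 4.42 in control arrays and 6.18, 6.36, 6.11 and 6.01 with LPS, 4.03-fold higher (2.01, SE 0.15, adjusted p = 8.08e-09).

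Ptger4, the receptor EP4, gave values in overlapping ranges. Its control values of 8.39, 8.10, 8.31 and 8.08 overlapped its LPS values of 8.19, 7.92, 7.95 and 7.95, with a difference of -0.21 (SE 0.09, 95% interval -0.40 to -0.02, adjusted p = 0.0908). That call depended on the setting: it passed without LPS array 1 (-0.28, adjusted p = 0.0339) and when only genes brighter than the median gene were tested (adjusted p = 0.0471). The Ptger4 difference also passed with the replicate number fitted as a block (adjusted p = 0.0142).

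The 5-lipoxygenase gene Alox5 moved the other way. In control arrays it read 9.17, 9.38, 9.43 and 9.31, and in LPS arrays 7.33, 7.48, 7.23 and 7.43. All LPS arrays lay below all control arrays by more than 1 log2 unit, and the transcript was 3.88-fold lower (-1.96, SE 0.07, adjusted p = 6.08e-13), the smallest adjusted p of the 9 genes in this comparison. Alox5ap, which encodes the FLAP protein that presents arachidonic acid to the enzyme, fell far less. Its values went from 10.73, 10.58, 10.64 and 10.67 to 10.35, 10.45, 10.41 and 10.40, a change of -0.25 (SE 0.06, adjusted p = 0.00583) without overlap.

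Differences were small or not called for the other genes of the prostanoid route. Pla2g4a, the cytosolic phospholipase, went from 11.45 ± 0.09 to 11.60 ± 0.02, a difference of 0.14 (SE 0.06, adjusted p = 0.0849), although its LPS arrays (11.58 to 11.63) all lay above its control arrays (11.35 to 11.57). It passed with an intensity trend (adjusted p = 0.0235), among brighter genes (0.0322) and without control array 1 (0.18, adjusted p = 0.0323), but repeated quantile normalization reduced the difference to 0.06 (adjusted p = 0.561). Tbxas1, thromboxane synthase, differed by -0.15 (95% interval -0.38 to 0.07, adjusted p = 0.351). Hpgd, the prostaglandin-inactivating dehydrogenase, stayed under the background level with group means of 3.35 to 3.49, and no change in it can be read from these arrays. Of the other 8 genes, all had every group mean above that level.

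**Figure D1:**
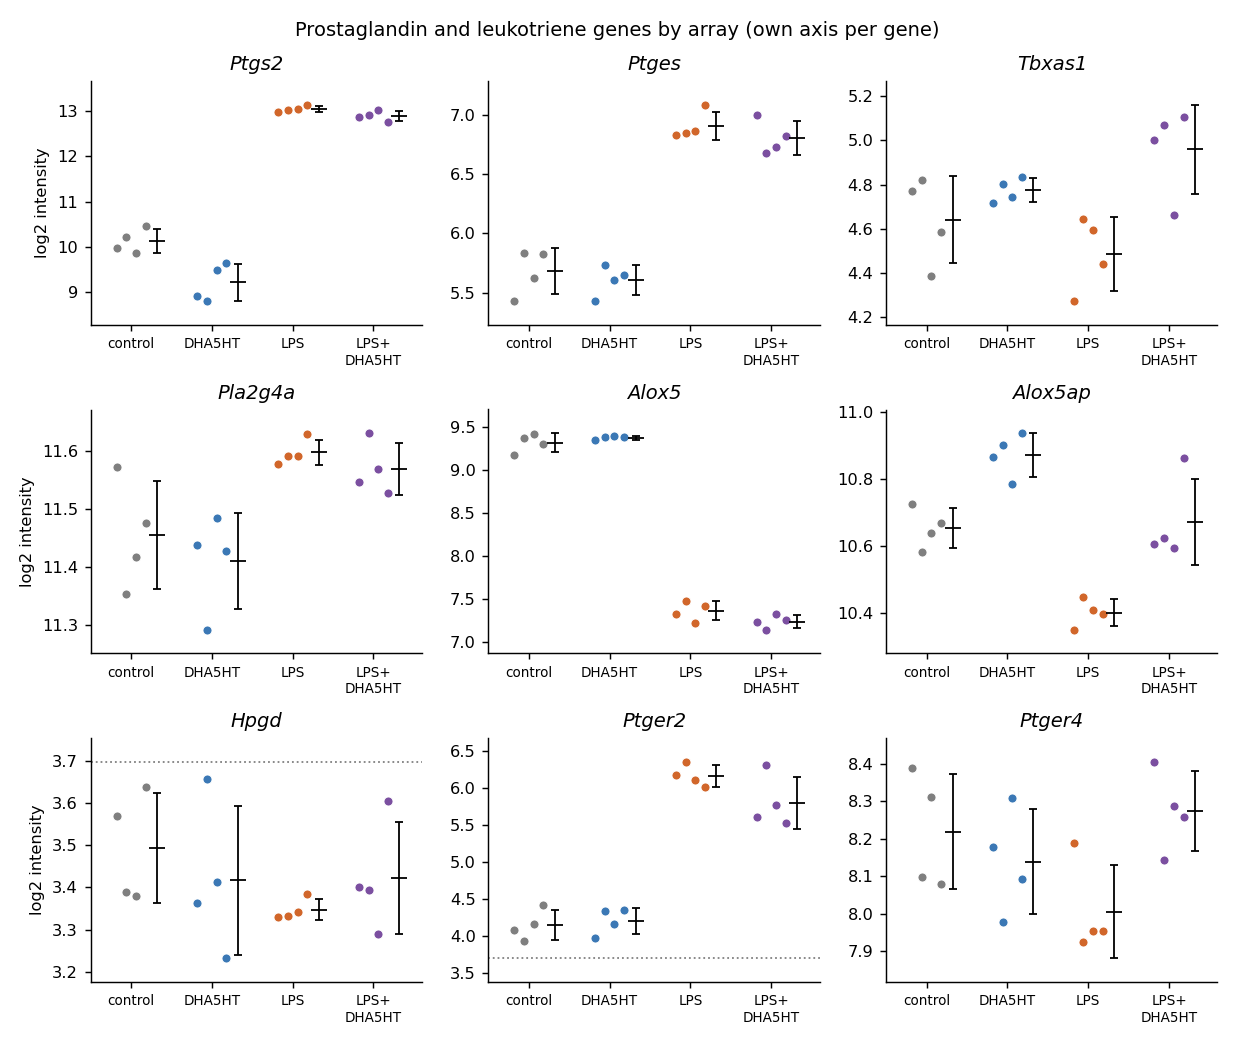
Log2 intensity of the 9 genes on each of the 16 arrays by treatment group, each gene on its own axis; points are arrays in order 1 to 4, bars are the mean ± SD (n = 4), and the dotted line is the background level of 3.70 where it falls in range. Ptgs2, Ptges and Ptger2 sit higher and Alox5 lower in both LPS-treated groups, whereas Hpgd stays below the dotted line.

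The LPS response was measured a second time in cells given DHA5HT, on 8 arrays that the first comparison did not use. The 5 genes called were the same, in the same directions (5 of 9, against 28.1% of all genes, with 3 higher against 12.4% and 2 lower against 15.7%). Over all genes, 77.5% of those called without DHA5HT were also called in the same direction with it. The arrays of the groups did not overlap for 5 of the 9, against 28.5% of all genes. Ptgs2 rose by 3.69 (SE 0.16), 12.9-fold, from 8.91, 8.81, 9.48 and 9.65 to 12.87, 12.92, 13.03 and 12.77. The larger fold came with a lower starting level in DHA5HT cells and a similar end level, and the difference between the Ptgs2 responses, 0.77 (SE 0.22, 95% interval 0.30 to 1.24), did not pass the test over all genes (adjusted p = 0.257). By group mean, Ptgs2 ranked 9 of 18820 genes with LPS and 13 with LPS+DHA5HT, and the highest value on any array was 13.68. Whether its upper values were compressed at the top of the scale was not tested.

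Ptges rose by 1.20 and Ptger2 by 1.60 in the presence of DHA5HT (adjusted p 4.91e-08 and 1.69e-07), with groups that did not overlap. The calls of Ptgs2, Ptges, Ptger2 and Alox5 remained in both LPS comparisons without any single array, the array of conflicting labels included. Alox5 fell by 2.14 (SE 0.07, adjusted p = 2.26e-13), 4.41-fold, and its DHA5HT arrays (9.35, 9.38, 9.40 and 9.39) were the most tightly spaced of its 4 groups (SD 0.02). Alox5ap fell by 0.20 (SE 0.06, adjusted p = 0.0258), but here the ranges overlapped because of LPS+DHA5HT array 4. Dropping array 2 or 4 of the DHA5HT group, or array 1, 2 or 3 of the other, ended that call (-0.19 to -0.17, adjusted p 0.0614 to 0.0796), and in the compared arrays alone (adjusted p = 0.0812). Pla2g4a again had a small positive difference (0.16, SE 0.06, adjusted p = 0.0548). It passed with an intensity trend (0.0124), among brighter genes (0.0190), after median centring (0.0479) and without DHA5HT array 3 (0.0436), and quantile normalization reduced it to 0.05. Neither Tbxas1 (0.18) nor Ptger4 (0.14) passed, though Tbxas1 did without LPS+DHA5HT array 3 (0.28, adjusted p = 0.0486).

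**Figure D2:**
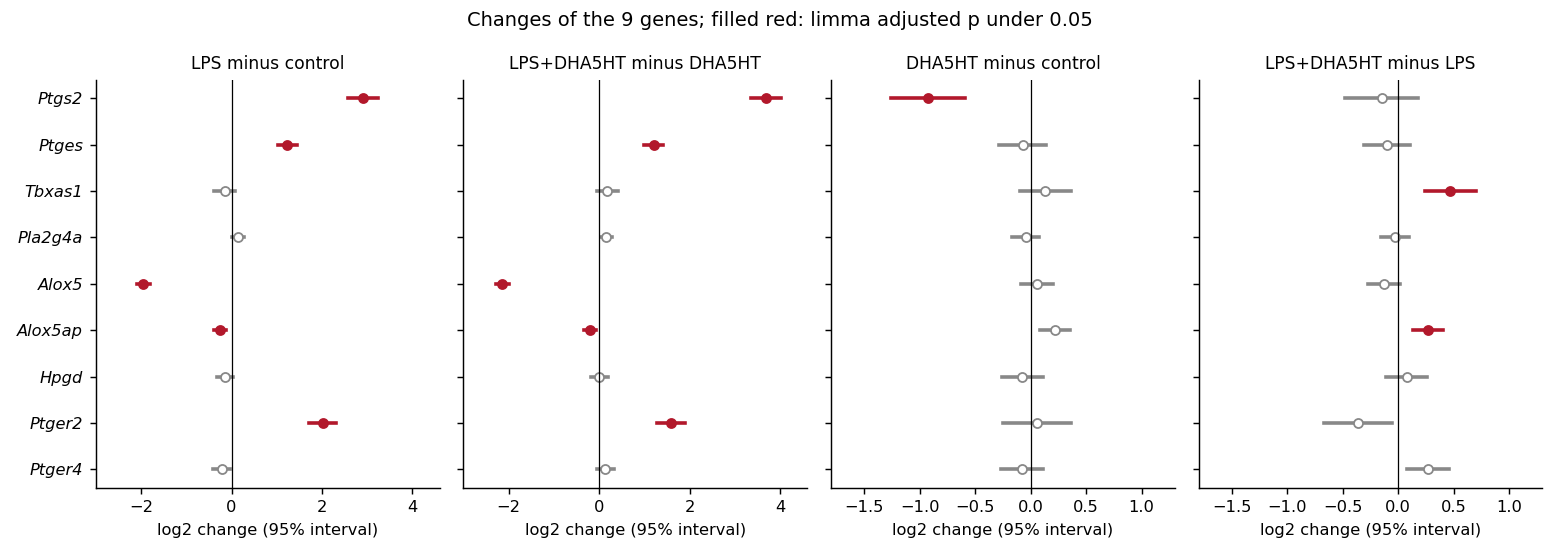
Log2 change of each of the 9 genes in 4 comparisons (points) with 95% intervals from the fit over 16 arrays (lines); filled red points have a limma adjusted p under 0.05, and the left and right pairs of panels use different scales. The left panels show the same 5 red genes in both LPS comparisons, and the right panels show Tbxas1 and Alox5ap higher in LPS-treated cells given DHA5HT and Ptgs2 lower in resting cells given it.

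DHA5HT without LPS asks what the conjugate did in resting macrophages. Ptgs2 was the 1 gene of 9 called, against 0.600% of all genes (0.478% lower). With the replicate number as a block, since same-numbered arrays deviated together in both DHA5HT comparisons, the count over all genes was 179 in place of 113. Compared with the control arrays given above, its DHA5HT arrays at 8.91, 8.81, 9.48 and 9.65 were all lower, and arrays 1 and 2 lay furthest down. The mean fell from 10.13 ± 0.26 to 9.21 ± 0.41, 1.90-fold lower (-0.92, SE 0.16, 95% interval -1.26 to -0.59, adjusted p = 0.00572). The call remained without any single array (-1.07 to -0.79, adjusted p 0.00106 to 0.0314), but when only these 8 arrays were fitted the adjusted p was 0.0815.

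Ptgs2 and Alox5ap were the 2 genes whose groups did not overlap, against 5.89% of all genes. With DHA5HT Alox5ap read 10.87, 10.90, 10.79 and 10.94, each above the highest control array at 10.73. Yet its difference of 0.22 (SE 0.06, adjusted p = 0.210) did not pass. Ptges, Tbxas1, Pla2g4a, Alox5, Ptger2 and Ptger4 differed by -0.08 to 0.13, all with overlapping ranges, and the 95% interval of the Alox5 difference was -0.08 to 0.20.

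DHA5HT added to LPS asks whether the conjugate altered the stimulated state. This comparison shares the LPS arrays with LPS against control. In these cells Tbxas1 and Alox5ap were higher with DHA5HT (2 of 9 genes called, against 1.79% of all genes, 0.818% higher), whereas for Ptgs2 a difference was not detected. The count over all genes was 337, and 647 with the replicate block. Ptgs2 was 12.90 ± 0.11 with DHA5HT and 13.05 ± 0.07 without, a difference of -0.15 (95% interval -0.48 to 0.18, adjusted p = 0.747). Both means lie near the top of the scale, where compression was not tested.

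Tbxas1, which makes the platelet-aggregating and vasoconstricting lipid thromboxane A2, read 4.27, 4.64, 4.59 and 4.44 with LPS and 5.00, 5.07, 4.66 and 5.10 with LPS+DHA5HT. The groups did not overlap, which holds for 2 of the 9 genes and 7.89% of all genes, although array 3 of the second group stood only just above the highest LPS array. The change was 0.47 (SE 0.11), 1.39-fold, with an adjusted p of 0.0356. Dropping array 1 or 4 of the LPS group, or array 1, 2 or 4 of the LPS+DHA5HT group, ended the call (0.40 to 0.46, adjusted p 0.0814 to 0.109) and in the compared arrays alone (adjusted p = 0.112).

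Alox5ap read 10.35, 10.45, 10.41 and 10.40 with LPS and 10.60, 10.62, 10.59 and 10.86 with LPS+DHA5HT. Array 4, which stood apart in the whole data set, was the highest, but the other 3 were also above every LPS array. The change was 0.27 (SE 0.06), 1.21-fold (adjusted p = 0.0419), and brought the mean to 10.67 ± 0.13, close to the control mean of 10.65 ± 0.06. Without array 4 it was 0.21 (adjusted p = 0.113), and the call was lost on leaving out any one array other than LPS+DHA5HT array 3 (0.21 to 0.29, adjusted p 0.0602 to 0.113). In the compared arrays alone its adjusted p was 0.155. Without LPS, Alox5ap differed by 0.22 with DHA5HT (limma adjusted p = 0.210). The difference between these effects was 0.05 (SE 0.09, adjusted p = 0.952).

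The receptors gave opposite signs in this comparison. Ptger2 was 5.60, 6.30, 5.78 and 5.53 with LPS+DHA5HT, and array 2 alone lay within the LPS range of 6.01 to 6.36. Its difference of -0.36 (SE 0.15, adjusted p = 0.267) did not pass, but without array 2 it was -0.53 (adjusted p = 0.0353). Ptger4 read 8.41, 8.14, 8.29 and 8.26 with LPS+DHA5HT, 0.27 above LPS (SE 0.09, adjusted p = 0.162). With the replicate block the Ptger4 difference passed (adjusted p = 0.0281). Ptges (-0.10), Alox5 (-0.13) and Pla2g4a (-0.03) differed little, with overlapping ranges, and the 95% interval for Alox5 was -0.27 to 0.02.

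Whether the conjugate acted differently in resting and stimulated cells was tested as the difference between its effects. None of the 9 genes passed in limma (0 of 9, against 0.329% of all genes), while 3 had an unadjusted p under 0.05 (Ptgs2, Tbxas1 and Ptger4), as did 7.65% of all genes. Over all genes 62 were called, and 96 with the replicate block. For Ptgs2 the DHA5HT effect was -0.92 without LPS and -0.15 with it, but these effects were not shown to differ (adjusted p = 0.257). Ptger4 had a difference of 0.35 (SE 0.13, adjusted p = 0.494) and Tbxas1 of 0.34 (SE 0.15, adjusted p = 0.623).

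In order of group means, Ptgs2 and Ptges ran LPS, LPS+DHA5HT, control, DHA5HT. For Ptges neither the first pair nor the last pair differed beyond the spread of their arrays, while for Ptgs2 control and DHA5HT were separate. Ptger2 was highest with LPS and next with LPS+DHA5HT, and its DHA5HT and control groups overlapped. Alox5 had the reverse arrangement, DHA5HT and control high and overlapping, LPS and LPS+DHA5HT low and overlapping. Alox5ap ran DHA5HT (10.87), LPS+DHA5HT (10.67), control (10.65) and LPS (10.40), and only the last step was free of overlap. Neighbouring groups of Tbxas1, Pla2g4a and Ptger4 all overlapped.

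The genes whose pattern lay nearest to that of Ptgs2 over the 16 arrays, by root mean square distance after each gene was centred on its control mean, were Gbp3 (0.27), Oasl1 (0.28) and Osm (0.38). Gbp3 encodes a guanylate-binding protein, Oasl1 an oligoadenylate synthetase-like protein and Osm the cytokine oncostatin M. Relative to control, Gbp3 stood at -0.79 with DHA5HT, 3.20 with LPS and 2.85 with LPS+DHA5HT, against -0.92, 2.92 and 2.76 for Ptgs2. Unlike Ptgs2 (limma adjusted p = 0.747), Gbp3, Oasl1 and Osm were called lower with DHA5HT in LPS-treated cells (adjusted p 0.00643 to 0.0381). With DHA5HT alone Osm stood at -0.37 and was not called (adjusted p = 0.278).

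Beyond these genes, 74 others of the pathway were listed by role in 8 lists, and 64 were measured, 15 of them at or below background in all groups. LPS raised 12 and lowered 14 of the 64 (40.6%, against 28.4% of all genes). These lists were not matched to all genes by brightness. With DHA5HT present LPS raised 11 and lowered 11 (34.4%, against 28.1% of all genes). In both comparisons 19 were called in the same direction, 73.1% of the first set and 86.4% of the second, and over all genes these shares were 77.5% and 78.4%. DHA5HT raised 3 of the 64 in LPS-treated cells (4.69%, against 0.818% of all genes called higher and 1.79% called in either direction). Without LPS it changed 0 in limma, with 8 at an unadjusted p under 0.05 (12.5%, against 9.85% of all genes). The difference between its effects was called for 0 in limma, with 11 at that level (17.2%, against 7.65% of all genes).

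Among 21 genes that release or re-esterify fatty acids 6 rose and 4 fell with LPS (47.6% called, against 28.4% of all genes). Pla2g5, a secreted phospholipase A2, rose by 1.14 (SE 0.10, adjusted p = 9.59e-08) from 6.69, 6.74, 6.85 and 6.84 to 7.81, 8.02, 7.95 and 7.90. Acsl4, which activates arachidonic acid for re-esterification, rose by 0.56 (adjusted p = 1.04e-06). Daglb, a diacylglycerol lipase on another route to arachidonic acid, fell by 1.46 (SE 0.07, adjusted p = 8.84e-11), 2.75-fold.

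Of 7 other prostanoid synthases 2 were called (28.6%, against 28.4% of all genes). Ptges2, a second PGE synthase, rose by 0.57 (adjusted p = 1.03e-04) and Hpgds, which makes PGD2, fell by 0.44 (adjusted p = 0.0211). The Hpgds call ended on dropping array 2 of the control group or array 1 or 3 of the LPS group (-0.41 to -0.36, adjusted p 0.0572 to 0.0768), but in the presence of DHA5HT the gene fell by 0.86 (adjusted p = 1.00e-04). Among 5 other prostanoid receptors Ptgir, the prostacyclin receptor, which like EP2 couples to cyclic AMP, rose by 0.64 (adjusted p = 2.18e-06), and the remaining 4, among them the PGE2 receptor Ptger3 (-0.06), did not pass. So 1 of the 5 was called, against 28.4% of all genes.

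On the leukotriene side, 3 of 11 synthesis, transport and breakdown genes rose and 4 fell (63.6% called, against 28.4% of all genes). Abcc1, a transporter that exports leukotriene C4, rose by 0.70 (adjusted p = 6.42e-07), and Cyp4f13, of a cytochrome P450 family that inactivates leukotrienes, by 1.03 (adjusted p = 2.83e-06). Mgst3, a microsomal glutathione transferase, fell by 1.09 (adjusted p = 1.69e-08). Of 4 leukotriene receptors 1 was called (25.0%, against 28.4% of all genes): Cysltr1, the cysteinyl leukotriene receptor, fell from 8.94, 8.78, 8.81 and 8.82 to 6.94, 7.14, 7.17 and 7.21 (-1.73, SE 0.08, adjusted p = 1.33e-11), 3.31-fold.

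Of 8 other lipoxygenases and epoxide hydrolases 3 fell and 0 rose with LPS (37.5% called, against 28.4% of all genes). Alox15 fell by 0.69, Ephx1 (microsomal epoxide hydrolase) by 0.63 and Aloxe3 by 0.47, with adjusted p values of 4.28e-05, 3.99e-04 and 0.00574. With DHA5HT present the LPS differences of Alox15 (-0.21, adjusted p = 0.147) and Ephx1 (-0.25, adjusted p = 0.135) did not pass. That of Aloxe3 did (-0.42, adjusted p = 0.0127), and the ranges overlapped for each of these genes. Among 4 receptors reported to bind pro-resolving lipids, Gpr18 rose by 2.82 (SE 0.12, adjusted p = 1.09e-11), 7.08-fold, from 6.34, 6.49, 5.94 and 6.74 to 9.10, 9.20, 9.18 and 9.33. No other gene of that list passed (25.0% called, against 28.4% of all genes), and Gpr18 also rose with DHA5HT present (2.54).

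**Figure D3:**
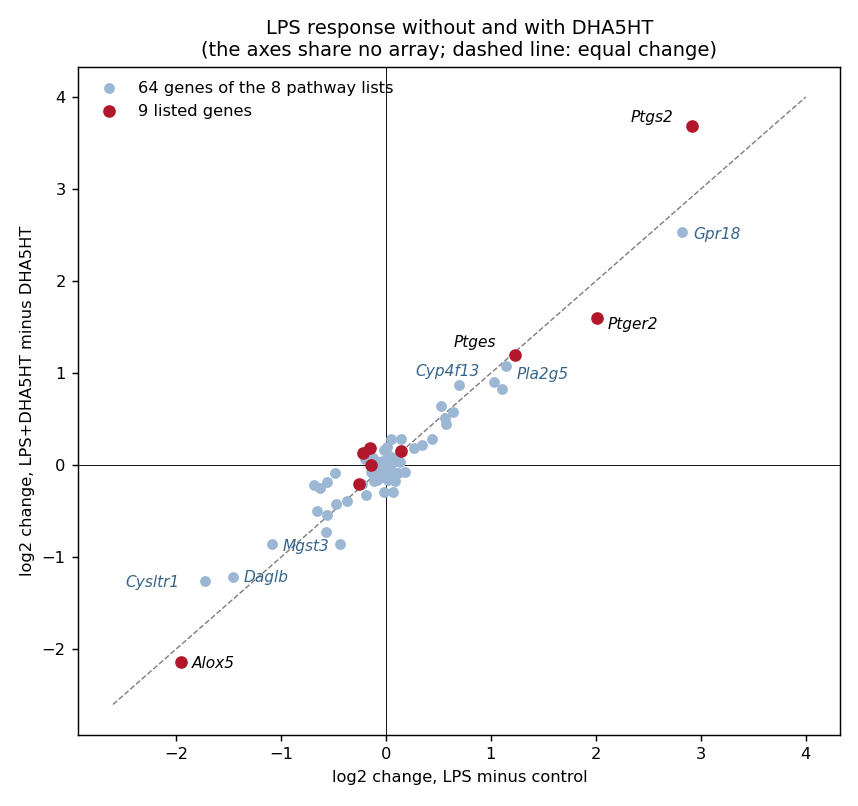
Log2 change with LPS in cells without DHA5HT (horizontal axis) and with it (vertical axis) for the 9 genes (red) and 64 other pathway genes (blue); the axes share no array and the dashed line marks equal change. Ptgs2 lies above the line (2.92 and 3.69), Alox5 at the lower left (-1.96 and -2.14), and most other genes near the origin.

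The 3 pathway genes that DHA5HT raised in LPS-treated cells had all fallen with LPS, a comparison that shares the LPS arrays. Ptgr1 encodes prostaglandin reductase 1, which inactivates prostaglandins after Hpgd and also leukotriene B4. It read 8.30, 8.40, 8.33 and 8.20 in control arrays, 7.72, 7.89, 7.68 and 7.69 with LPS, and 8.24, 8.27, 8.07 and 8.24 with LPS+DHA5HT. Every LPS+DHA5HT array lay above every LPS array, by 0.46 in the mean (SE 0.08, 1.38-fold, adjusted p = 0.00577), and the call remained without any single array.

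Daglb rose by 0.35 (SE 0.07, adjusted p = 0.0237), from 7.07, 6.88, 7.11 and 7.12 to 7.51, 7.33, 7.49 and 7.27. Those values are far below its control mean of 8.51, and the call ended on dropping array 2 of the LPS group or array 1 or 3 of the LPS+DHA5HT group (0.30 to 0.32, adjusted p 0.0563 to 0.0836) and in the compared arrays alone (adjusted p = 0.0979). Pla2g4c, a calcium-independent relative of Pla2g4a, rose by 0.42 (adjusted p = 0.0375), but its LPS mean of 3.59 was under background. This call, too, ended on dropping array 2 or 4 of the LPS group or array 1, 2 or 4 of the LPS+DHA5HT group (0.36 to 0.41, adjusted p 0.0804 to 0.121) and in the compared arrays alone (adjusted p = 0.145). Mgst3 (0.31, adjusted p = 0.0689) and Ephx1 (0.41, adjusted p = 0.0873) did not pass, but did with the replicate block (adjusted p 0.0240 and 0.0391). Cysltr1 differed by 0.18 with DHA5HT in LPS-treated cells and did not pass.

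**Figure D4:**
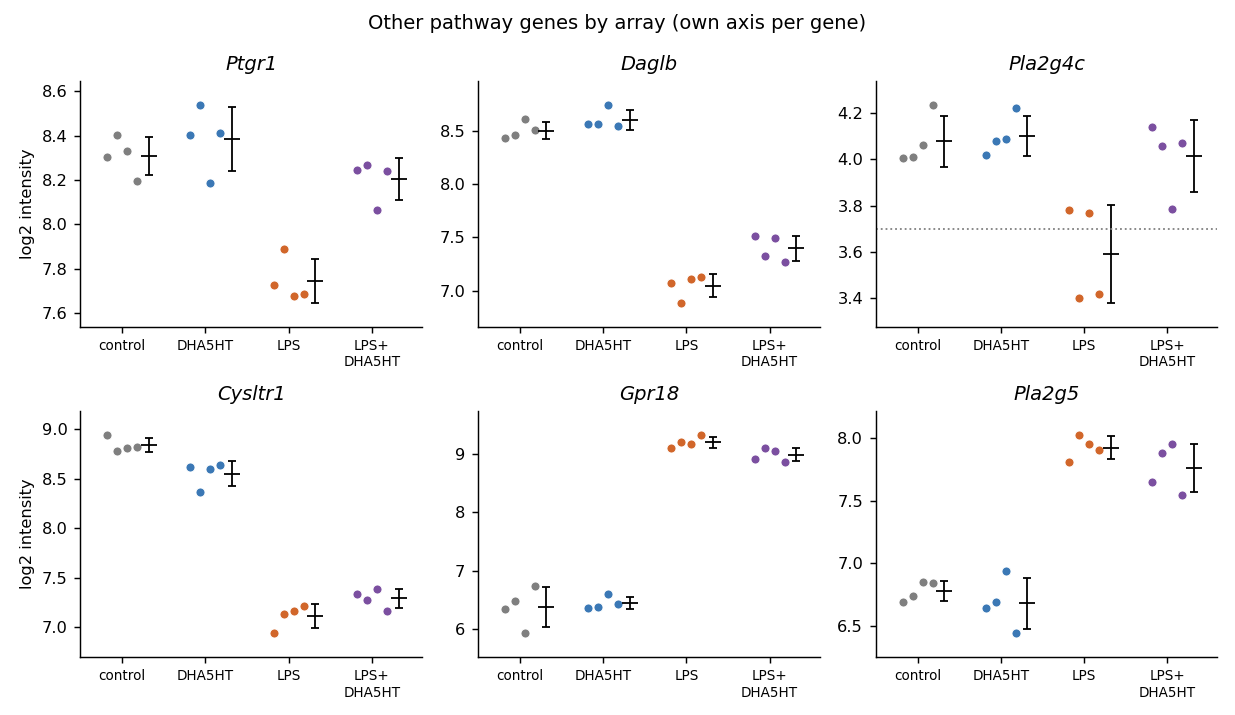
Log2 intensity of 6 other pathway genes on each array by group, each on its own axis, with the mean ± SD (n = 4) and the background level of 3.70 dotted where it falls in range. Ptgr1 in LPS+DHA5HT cells lies at 8.07 to 8.27, above all LPS arrays (7.68 to 7.89), whereas Cysltr1 and Gpr18 separate by LPS.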

How the data were processed

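The data are 16 arrays of total RNA (100 ng each, per the labels' protocols) on an Affymetrix whole-transcript array. The authors deposited log2 values made with RMA, per the submitters' processing notes: background correction, normalization between arrays and 1 summary per probe set. Its version, any filter and the genome build of the annotation were not given in the sources used here. RMA shrinks differences near background and ties the arrays to 1 distribution, so global shifts cannot be seen. The table held 35556 probe sets, and array medians were 4.58 to 4.67. In the array's gene table, 1 gene was named by 21218 of them and several by 1881, and 12457 were not listed; the highest-mean probe set represented a gene. The number of arrays limits the precision.

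One limma 3.58.1 fit in R 4.3.3 (4 group means, 12 residual degrees of freedom, two-sided) gave 5 comparisons over 18820 genes, adjusted within each by Benjamini-Hochberg. Groups followed sample titles. The genes, the lists and the tests were chosen with earlier results of these data known. The naming rule took all listed genes, up to 3 genes with the smallest p per list in LPS against control, every list gene called in a DHA5HT comparison or in the difference between the DHA5HT effects, and the 3 genes most like Ptgs2.

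Same-numbered arrays deviated together in the DHA5HT comparisons (correlation of deviations 0.116 to 0.205 with LPS, 0.131 to 0.183 without). In LPS against control the correlations were 0.0995 to 0.131, and 8 of 8 arrays correlated best with their own number. For the LPS response with DHA5HT present they were 0.0699 to 0.232, with 6 of 8 arrays. A replicate block was therefore fitted as an alternative. The others were an intensity trend, a filter on dim genes, repeated quantile normalization, median centring, means over probe sets, the compared arrays alone and leaving out each array. On simulated data for LPS against control, 84% of changes of 0.5 and 99% of 1 were recovered among 18820 genes, with 5.18% of calls false. The simulated noise was independent between arrays and only a small share of genes was changed, unlike in these data. The rates therefore describe the simulation and may differ for the real comparison. Promoters were matched by symbol for 9 of the 10 listed genes. Figures used matplotlib 3.10.9 in Python 3.11.15.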

Additional observations from a re-analysis of the deposited data

Results flagged for a closer look

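Within groups of 4 arrays, 8 of 100 gene and group combinations had 1 array far from the other 3 (Dixon's test at the 95% level), and chance gives about 1 in 20. The first 3 are listed genes: Ptges in LPS array 4 at 7.09 (next 6.87), Alox5ap in LPS+DHA5HT array 4 at 10.86 (next 10.62) and Ptger4 in LPS array 1 at 8.19 (next 7.95). The Alox5ap value is on the array that stood apart on the second principal component, and the change of Alox5ap with DHA5HT in LPS-treated cells is 0.21 without that array.

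The other 5 were pathway genes. Daglb read 8.75 in DHA5HT array 3 (next 8.57), Ephx1 read 6.06 in the same array (next 5.80) and Ptgr1 read 8.07 in LPS+DHA5HT array 3 (next 8.24). Abcc1 read 9.45 in control array 4 (next 9.25) and Cysltr1 read 8.36 in DHA5HT array 2 (next 8.60).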

How the results depend on the processing

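Of 1183 refits of 76 log2 changes of single genes, 1122 kept their direction and their side of the threshold, 34 were weaker, 13 stronger and 14 changed sign, 0 of these in a called value. Counts of called genes are outside these totals. The counts of 5 called genes in both LPS comparisons and the count of 0 for the difference between the DHA5HT effects stayed within 1.5-fold in every refit. With DHA5HT in LPS-treated cells the count of 2 became 1 of the 6 genes brighter than the median gene, 0 in the compared arrays alone, and 0 to 2 on leaving out 1 array; without LPS the count of 1 became 0 in the compared arrays alone. The sign changes were Ptger2 with DHA5HT alone (-0.0177 to 0.143 on leaving out 1 array), Hpgd with LPS in the presence of DHA5HT (-0.00697 after quantile normalization, -0.0558 to 0.0857 on leaving out 1 array), and, in the difference between the DHA5HT effects, Ptges (-0.0910 to 0.0569), Pla2g4a (-0.0109 after quantile normalization, -0.0238 to 0.0493) and Alox5ap (-0.0123 to 0.0778), all uncalled; the cause was not tested. With the replicate block Ptger4 passed in LPS against control (adjusted p = 0.0142), and Ptgr1 in the LPS response with DHA5HT present (0.0340). In each of these comparisons 3 of 4 same-numbered pairs had a correlation of deviations over 0.1. In DHA5HT added to LPS the block brought in Ptger4, Mgst3 and Ephx1. Over 25 named genes and 5 comparisons (125 results) the block changed these 5 calls. Genes called over all 18820 with DHA5HT in LPS-treated cells went from 337 to 647 with the block. The count was 557 among the 9410 brighter genes tested alone, 86 in the compared arrays alone and 143 to 289 on leaving out 1 array. With DHA5HT alone the count over all genes went from 113 to 179 with the block. For the difference it went from 62 to 96 with the block and 34 to 62 on leaving out 1 array. Signal near background limits Hpgd, Pla2g4c, Ptger2 and Tbxas1.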
